A study of Mus musculus with 10 samples.

Results

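The genes of the mitochondrial genome were taken as all genes of the count files whose symbol begins with mt-. The rule found 37 of the 47937 genes listed in each library. They were 13 mRNAs, 2 rRNAs and 22 tRNAs. Of the mRNAs, 7 code for subunits of complex I (mt-Nd1 to mt-Nd6 and mt-Nd4l), 1 for complex III (mt-Cytb), 3 for complex IV (mt-Co1 to mt-Co3) and 2 for complex V (mt-Atp6 and mt-Atp8). All lie on the mitochondrial chromosome of GRCm38, and their positions were read from the GENCODE M21 annotation.

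The libraries were poly(A)-selected RNA of visceral white adipose tissue (WAT) from C57BL/6 mice (backcrossed to C57BL/6J in the study's methods) with both copies of Mof (Mof+/+) or with one copy (Mof+/−), fed a standard diet (SD) or a high-fat diet (HFD). Mof, listed as Kat8, codes for a lysine acetyltransferase. There were 3 SD Mof+/+ and 3 SD Mof+/− libraries from mice aged 8 weeks, and 2 HFD Mof+/+ and 2 HFD Mof+/− libraries from mice aged 27 weeks after 20 weeks of HFD, according to the sample descriptions. The comparisons asked what Mof dosage does on each diet and what the diet does in each genotype. Diet and age cannot be told apart, and the text of the study gives a longer time on HFD than the sample descriptions. In bulk tissue, fewer cells of a type and less RNA per cell cannot be told apart either.

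Kat8 was at 21.5, 21.4 and 20.4 CPM, a gene's counts scaled to the library's total on genes, in the SD Mof+/+ libraries and at 12.2, 18.8 and 11.5 CPM in the SD Mof+/− libraries. It was at 18.1 and 19.2 CPM in HFD Mof+/+, and at 20.1 and 10.5 CPM in HFD Mof+/− by label. Replicate 1 of these has only 21 Kat8 counts, with a 95% interval (exact Clopper-Pearson) of 12.4 to 30.7 CPM, so the genotype of that library was not visible in Kat8. After TMM scaling the SD genotypes overlapped in Kat8 (log2 fold change −0.22 with a standard error of 0.35, adjusted p = 0.736 in edgeR). Totals ranged from 1044355 counts (HFD Mof+/− replicate 1) to 17171947 counts (SD Mof+/− replicate 1). The 16 skeletal muscle markers summed to 79894 CPM in HFD Mof+/− replicate 1 and 1931 CPM in replicate 2, against 51.0 to 136 CPM in the other 8 libraries. The adipocyte markers, Adipoq and Plin1 among them, were present in all 10 libraries (14126 to 48550 CPM summed). Xist was read in the 3 SD Mof+/− libraries (46.1 to 139 CPM) and in none of the other 7, and Ddx3y of the Y chromosome was at 49.7 to 100.0 CPM in those 7 and at 0 in the SD Mof+/− libraries. The study's methods name male mice. Genotype on SD and sex therefore cannot be told apart. Inside the files, the headings of SD replicate 3 name the other genotype in each case, and both Xist and the CPM of Kat8 follow the sample labels there, which were used.

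Mitochondrial DNA is read from both strands into long transcripts that run through many genes. The tRNAs between the mRNAs are cut out and so free the mRNAs and rRNAs, most of which then receive a short A tail. The proteins are core subunits of the respiratory chain and of ATP synthase, and each complex also needs subunits coded in the nucleus. In cultured cells a part of MOF has been reported inside mitochondria, bound to mitochondrial DNA. In white adipocytes the respiratory chain is sparser than in brown adipocytes or muscle fibres.

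The genes lie so close together that some share bases, which bears on how reads are given to genes. Overlaps of more than 1 base between neighbouring mRNAs on the same strand are shown with 12 bases on each side, in capitals where both genes hold the base (mt-Atp6 and mt-Co3 also share 1 base). The first lies at chrM:7915-7981, where mt-Atp8 and mt-Atp6 share 43 bases, and the second at chrM:10155-10185, where mt-Nd4l and mt-Nd4 share 7 bases (GRCm38, strand of the mRNAs, from the GENCODE M21 transcripts).
mt-Atp8/mt-Atp6: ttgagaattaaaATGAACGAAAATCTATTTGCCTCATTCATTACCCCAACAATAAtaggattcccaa
mt-Nd4l/mt-Nd4: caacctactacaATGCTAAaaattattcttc
In each, the capitals open with the ATG of the second gene and run to the end of the first.

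A nuclear copy of mitochondrial DNA on chromosome 1 matches 5 of the mRNAs nearly whole, so reads of these genes can match both places. The copy spans 24611535 to 24616197 and is annotated as 7 pseudogenes, Gm29216, Gm28661, Gm10925, Gm28437, Gm28438, Gm10222 and Gm28439. It matched 681 of the 684 bases of mt-Co2, 678 of the 681 bases of mt-Atp6, 783 of the 784 bases of mt-Co3 and 294 of the 297 bases of mt-Nd4l without a difference, and 345 of the 348 bases of mt-Nd3 with 1 difference (T3C, counted from the first base of the gene). It also matched the first 876 of the 1378 bases of mt-Nd4 and, without a break, the last 479 of the 1545 bases of mt-Co1. mt-Atp8 lies between mt-Co2 and mt-Atp6. The matched parts of these neighbours are 233 bases apart in the mitochondrial genome and in the copy alike, which leaves room for mt-Atp8 in the copy, but its match there was not tested. The left edge of the copy in mt-Co1 is shown at bases 1054 to 1089 of the gene (chrM:6381-6416), with the 6 differing bases in capitals.
mt-Co1: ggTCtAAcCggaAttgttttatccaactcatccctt
Gm29216: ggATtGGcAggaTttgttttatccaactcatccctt
The differences are T1056A, C1057T, A1059G, A1060G, C1062A and A1066T, with the base of mt-Co1 first, and after base 1066 the sequences are the same to the end of the gene.

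The 6 mRNAs from mt-Co2 to mt-Nd4l (mt-Co2, mt-Atp8, mt-Atp6, mt-Co3, mt-Nd3 and mt-Nd4l) had few counts in every library. Together they were at 52.8 to 671 CPM, while the 7 pseudogenes of the copy were at 277 to 3605 CPM, 3.77 to 10.4 times as much. How reads that match several places were counted is not given in the sources used here. The levels of these 6 mRNAs are therefore uncertain, as are those of mt-Co1 and mt-Nd4 in part. On chromosome 2, Gm13339 matches bases 529 to 1038 of mt-Nd2, and Gm13340 and Gm13341 match mt-Co1 and mt-Co2 over their whole length. The identity is 95.9% to 97.6%, and the mean levels of these 3 pseudogenes were 24.2, 149 and 57.9 CPM.

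Per kilobase of gene, mt-Co1 had the highest mean level over the 10 libraries (16961 CPM per kb), followed by mt-Cytb (13834), mt-Nd1 (9722), mt-Nd2 (6834), mt-Nd4 (5734) and mt-Nd5 (3205 CPM per kb). HFD Mof+/− replicate 1 weighs heavily in these means. Without it, an alternative chosen after seeing the data, they were 13302, 10069.5, 6047, 4417, 3786 and 2823 CPM per kb in the same order. mt-Co1 was the highest mRNA in 8 of the 10 libraries, and mt-Cytb in SD Mof+/− replicate 3, where mt-Co1 was at 2869 CPM per kb and ranked 5, and in HFD Mof+/− replicate 2. mt-Nd6, the only mRNA of the light-strand transcript, had a mean of 676 CPM per kb, below its neighbour mt-Nd5. The rRNAs mt-Rnr1 and mt-Rnr2 had means of 1434 and 1241 CPM per kb in these poly(A)-selected libraries, and of 613 and 547 CPM per kb without HFD Mof+/− replicate 1, when the mean of mt-Nd6 was 551 CPM per kb. If all counts of mt-Co1 and mt-Nd4 came from the bases outside the copy, their means would be 24582 and 15740 CPM per kb. The order of mt-Nd4 against mt-Cytb, mt-Nd1 and mt-Nd2 therefore depends on how the reads of the copy were counted.

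**Figure D1:**
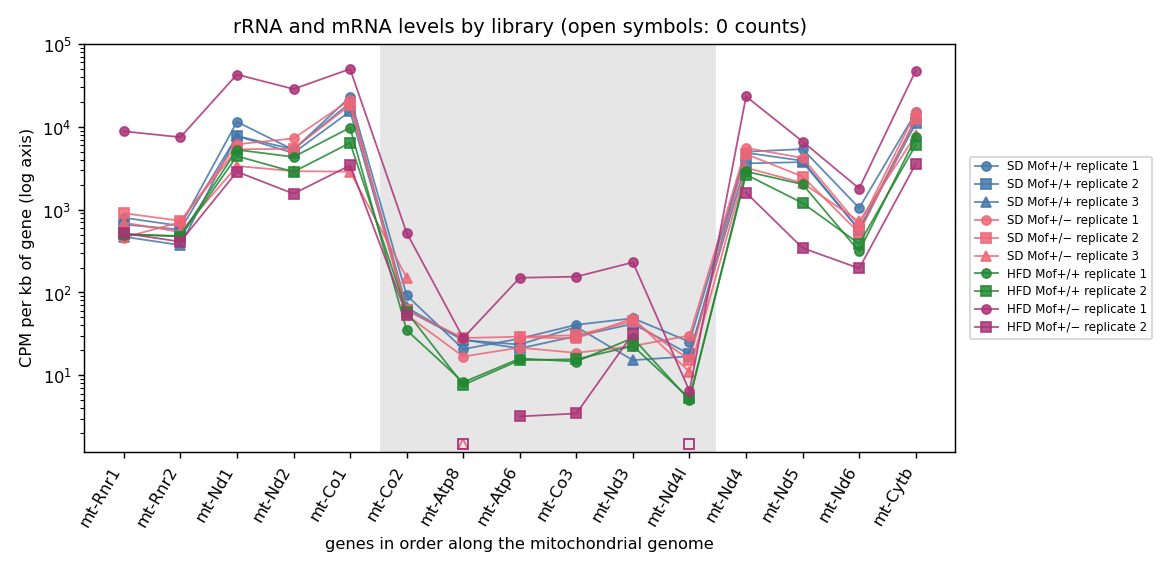
CPM per kilobase (log axis) of the 2 rRNAs and 13 mRNAs, in their order along the mitochondrial genome, with 1 line per library coloured by group and the 6 mRNAs from mt-Co2 to mt-Nd4l shaded. The shaded genes fall far below their neighbours in all 10 libraries, and HFD Mof+/− replicate 1 lies above the other libraries except at mt-Atp8 and mt-Nd4l.

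The share of all counts that fell on the 37 genes was 8.82%, 6.26% and 7.26% in SD Mof+/+. In SD Mof+/− it was 8.04%, 6.67% and 3.02%. On HFD it was 4.23% and 3.13% in Mof+/+. With the label HFD Mof+/− it was 26.9% and 1.79%, in replicates 1 and 2, the highest and the lowest of the 10 libraries. At these totals, 95% intervals (exact Clopper-Pearson, counting error only) were narrow, at most from 26.8% to 26.9%, and the libraries differed by far more than that. The genotypes overlapped on SD. Both HFD Mof+/+ libraries lay below all 3 SD Mof+/+ libraries, with a mean of 3.68% ± 0.775 (SD, n = 2) against 7.45% ± 1.29 (SD, n = 3), a log2 ratio of −1.02 between the geometric means.

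The library with the highest mitochondrial share was also the one with 79894 CPM of muscle markers and 1137 CPM of brown adipocyte markers. Replicate 2 of that group, with 1931 CPM of muscle markers and 348 CPM of brown adipocyte markers (8.94 to 74.3 CPM elsewhere), had the lowest share. Of the brown adipocyte list, Ucp1 was at 81.4 CPM in replicate 1 and 3.62 CPM in replicate 2, and at most 0.90 CPM in the other libraries. Cox8b and Cox7a1, which muscle also expresses, made up most of the sum. The other listed genes did not all rise. Dio2 was at 0 CPM in both replicates and at 0 to 8.35 CPM elsewhere. Elovl3 was at 0 CPM in replicate 1 and 2.17 CPM in replicate 2. Cidea was at 35.4 and 60.4 CPM, and at 35.4 CPM in SD Mof+/+ replicate 3 as well. The part of muscle and brown adipocytes in the mitochondrial share was not tested.

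**Figure D2:**
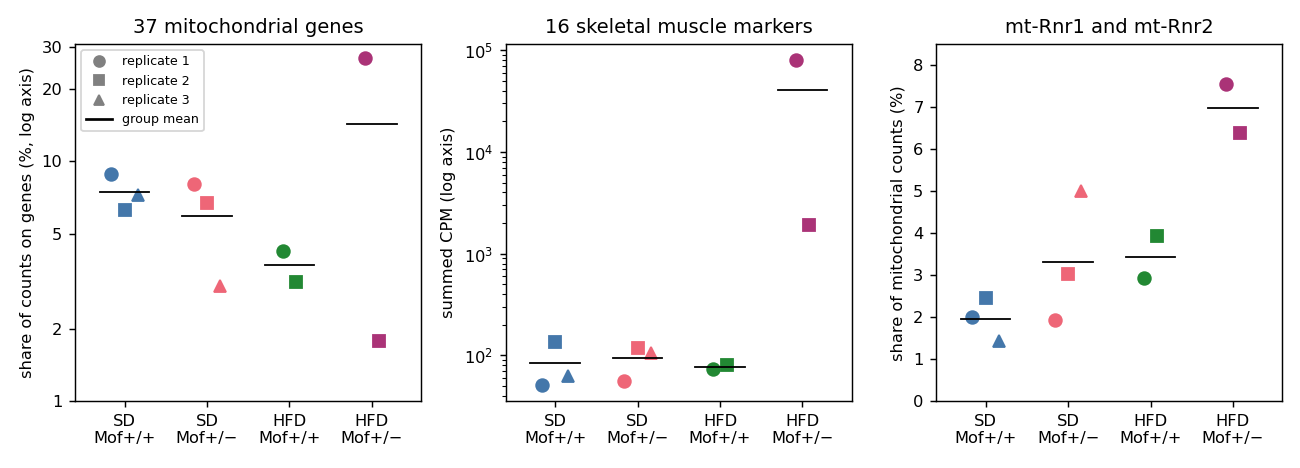
Each point is 1 library in its genotype and diet group, and bars are group means. Left, share of counts on the 37 mitochondrial genes (log axis), from 1.79% to 26.9%. Middle, summed CPM of 16 skeletal muscle markers (log axis), with both HFD Mof+/− libraries above all others. Right, share of the mitochondrial counts on mt-Rnr1 and mt-Rnr2, from 1.43% to 7.55%, highest in the HFD Mof+/− libraries.

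Between the genotypes on SD, none of the mitochondrial mRNAs passed the test. edgeR's quasi-likelihood test called 0 of the 21 members that passed its filter on low counts (Benjamini-Hochberg adjusted p under 0.05), against 5.24% of the 13864 genes tested, and 4 members had an unadjusted p under 0.05, all higher in Mof+/− (14.1% of all genes). DESeq2 called 2 members (15.9% of all genes). Among the 13 mRNAs, values in Mof+/− were higher for 8 and lower for 5. Their median log2 fold change was 0.22, against −0.07 over all genes, and it turned to −0.71 with a correction for transcript length. These fold changes are on the TMM scale, which raises Mof+/− against Mof+/+ by 0.36 on the log2 scale on SD, by 0.33 on HFD, and HFD against SD in Mof+/+ by 0.13. By mean CPM without TMM, 4 mRNAs were higher and 9 lower in SD Mof+/−. The smallest adjusted p among the mRNAs was 0.322, for mt-Nd1. mt-Nd1, the first mRNA of the heavy-strand transcript, was at 10996, 7409 and 7409 CPM in Mof+/+. It was at 5888, 5122 and 3216 CPM in Mof+/−. After TMM scaling it was the only member whose Mof+/− libraries all lay below the Mof+/+ libraries (18% of all genes did so), with a log2 fold change of −0.52 (standard error 0.30).

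The other heavy-strand mRNAs overlapped between the genotypes. mt-Co1, the catalytic core of complex IV, was at 35414, 23818 and 30223 CPM in SD Mof+/+. In SD Mof+/− it was at 32578 and 28239 CPM in replicates 1 and 2 and at 4433 CPM in replicate 3. The low value of replicate 3 gave the group a wide spread (−0.13 ± 0.58 SE in log2 units, adjusted p = 0.908 in edgeR). mt-Cytb, the catalytic subunit of complex III, was at 17096, 12559 and 14192 CPM in Mof+/+ and at 17058, 14212 and 9068 CPM in Mof+/−. mt-Nd5, a proton-pumping subunit of complex I, was at 9819, 6830.3 and 7093 CPM in Mof+/+ and at 7692, 4568 and 3832 CPM in Mof+/−. mt-Nd6 was at 543, 295 and 296 CPM in Mof+/+ and at 331, 272 and 374 CPM in Mof+/−, values that overlap. For these 3 mRNAs the TMM-scaled log2 fold changes were 0.22, −0.22 and 0.15, with standard errors of 0.29, 0.32 and 0.32, while the mean CPM were lower in Mof+/− for all 3.

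The make-up of the mRNA counts shows how replicate 3 stood apart. mt-Co1 took 39.0% to 42.2% of the counts on the 13 mRNAs in SD Mof+/+. In SD Mof+/− it took 41.3%, 43.7% and 15.5%. Over all 10 libraries the next lowest share was 31.1%. In that replicate 3, mt-Cytb took 31.8% (19.8% to 24.4% in the other libraries) and mt-Nd4 took 15.5% (7.98% to 13.2%). The share of mt-Nd5 was 9.91% to 11.4% in SD Mof+/+, 9.76%, 7.07% and 13.4% in SD Mof+/−, 8.98% and 7.27% in HFD Mof+/+, and 4.88% and 3.75% in HFD Mof+/−. The share of mt-Nd1 was 10.4% to 12.7% in SD Mof+/+, 7.47%, 7.93% and 11.3% in SD Mof+/−, 12.3% and 14.1% in HFD Mof+/+, and 16.5% and 16.4% in HFD Mof+/−. These shares lie within a library and do not depend on its total. Both HFD Mof+/− libraries had nearly the same make-up for mt-Nd1 and mt-Co1 (31.1% and 31.6%), although their mitochondrial shares were 26.9% and 1.79%.

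**Figure D3:**
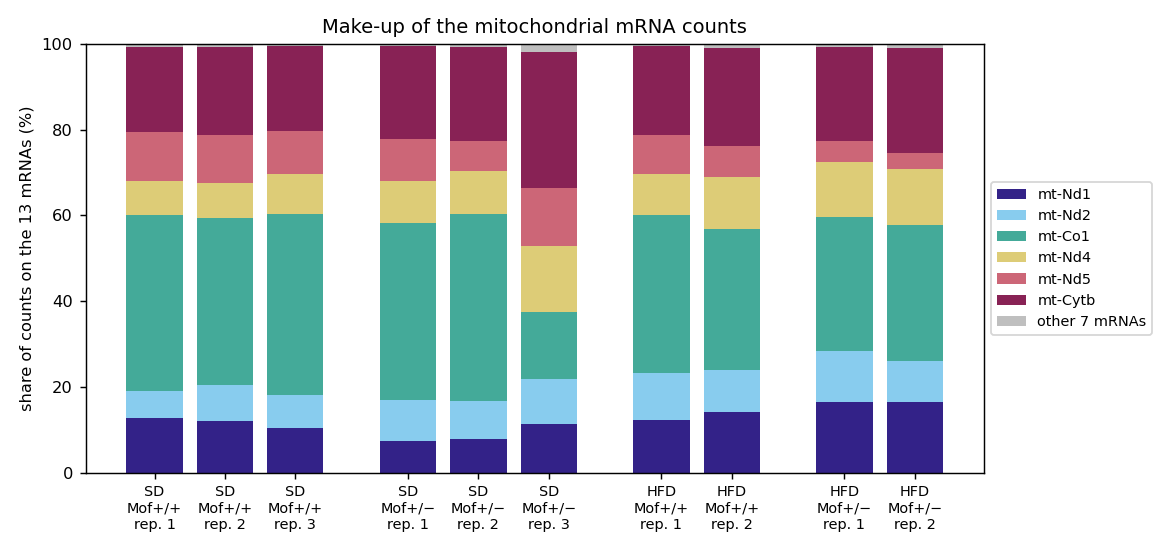
Bars give the make-up of the counts on the 13 mitochondrial mRNAs in each library, in percent, for the 6 most abundant mRNAs and the sum of the other 7. mt-Co1 is the largest part except in SD Mof+/− replicate 3, where it is 15.5% and mt-Cytb is 31.8%.

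Replicate 3 of SD Mof+/− also had the lowest rank correlation between CPM and transcript length over genes (Spearman rho −0.03). The others were at 0.24 to 0.27 in SD Mof+/+, 0.17 and 0.09 in the other SD Mof+/− libraries, 0.15 and 0.13 in HFD Mof+/+ and 0.01 and 0.06 in HFD Mof+/−. This correlation was thus lower in all other libraries than in SD Mof+/+, and its part in the make-up of the mitochondrial counts was not tested.

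The 16S rRNA was higher relative to mt-Nd1, the mRNA that follows it, in the Mof+/− libraries. mt-Rnr2, the rRNA of the large mitochondrial ribosomal subunit, was at 1008, 908 and 590.1 CPM in SD Mof+/+ and at 1117, 1159 and 848 CPM in SD Mof+/− (0.67 ± 0.28 SE in log2 units, adjusted p = 0.177 in edgeR). With the correction for transcript length the log2 fold change of mt-Rnr2 was 0.03 and that of mt-Nd1 was −1.37. Per library, the ratio of mt-Rnr2 to mt-Nd1 counts was 0.0916, 0.123 and 0.0796 in SD Mof+/+ and 0.190, 0.226 and 0.264 in SD Mof+/−. It was 0.151 and 0.177 in HFD Mof+/+ and 0.289 and 0.236 in HFD Mof+/−. The genotypes did not overlap on either diet. The mean log2 difference over the diets was 0.95, with 1.22 on SD and 0.68 on HFD (two-sided exact permutation test within diets over 120 assignments, p = 0.0167, the smallest p possible, and 0.0667 adjusted over the 4 ratios tested). After this adjustment the difference did not pass 0.05. Leaving out any 1 library gave 0.88 to 1.04, and with the third SD libraries exchanged as in the column headings it was 0.37 (p = 0.317 by the same exact test). mt-Rnr1, the rRNA of the small ribosomal subunit, was at 763, 631 and 449.8 CPM in SD Mof+/+ and at 439, 865 and 666 CPM in SD Mof+/−, which overlap.

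The other 3 ratios did not pass the test over both diets. mt-Cytb to mt-Nd1, the last against the first mRNA of the heavy-strand transcript, was 1.55, 1.70 and 1.92 in SD Mof+/+ and 2.90, 2.77 and 2.82 in SD Mof+/−. On HFD it was 1.68 and 1.63 in Mof+/+ and 1.33 and 1.49 in Mof+/−. The genotypes thus separated in opposite directions on the 2 diets, and the mean over diets was 0.24 on the log2 scale (two-sided exact permutation test, p = 0.15, adjusted 0.222). mt-Co1 to mt-Nd1 was 3.22, 3.21 and 4.08 in SD Mof+/+ and 5.53, 5.51 and 1.38 in SD Mof+/−, with the low value again in replicate 3. On HFD it was 2.98 and 2.33 in Mof+/+ and 1.88 and 1.93 in Mof+/−. The mean log2 difference was −0.24 (exact permutation test, p = 0.55, adjusted 0.55), and 0.10 without SD Mof+/− replicate 3. mt-Nd6 to mt-Nd5, the light-strand mRNA against its heavy-strand neighbour, was 0.0417 to 0.0553 in SD Mof+/+, 0.0431 to 0.0977 in SD Mof+/−, 0.0441 and 0.0917 in HFD Mof+/+ and 0.0770 and 0.162 in HFD Mof+/− (mean log2 difference 0.63, exact permutation test, p = 0.167, adjusted 0.222). The libraries do not mark the strand, so reads of the opposite transcript cannot be told apart from those of mt-Nd6.

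**Figure D4:**
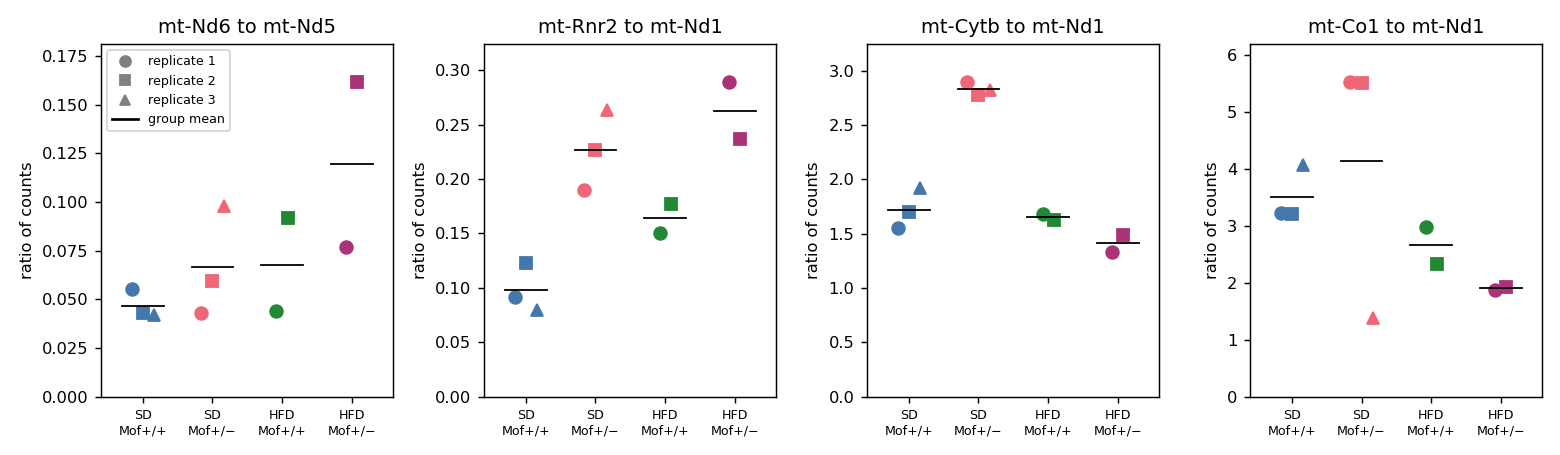
Ratios of counts between pairs of mitochondrial genes, with 1 point per library by genotype and diet and bars for group means. For mt-Rnr2 to mt-Nd1 the Mof+/− libraries (0.190 to 0.289) lie above the Mof+/+ libraries of the same diet, and for mt-Cytb to mt-Nd1 they lie above on SD and below on HFD.

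The tRNA genes had few counts. Of the 22, 6 had no count in any library, and 7 in all had at most 3 counts in every library, where 3 counts were worth 0.175 CPM (SD Mof+/− replicate 1) to 2.87 CPM (HFD Mof+/− replicate 1). Together the tRNA genes took 0.0145% to 0.0468% of the mitochondrial counts in SD Mof+/+ and 0.0919% to 0.594% in SD Mof+/−. Summed, they were at 12.8, 29.3 and 17.0 CPM in SD Mof+/+ and at 73.9, 75.8 and 180 CPM in SD Mof+/−, so the genotypes did not overlap. The 5 of highest mean CPM were mt-Tt, mt-Tm, mt-Tp, mt-Tw and mt-Tl1. mt-Tm, with a mean of 10.6 CPM, was at 83.3 CPM in HFD Mof+/− replicate 1 and had a mean of 2.47 CPM without it. mt-Tt, the only tRNA gene over 3 counts in every library, and mt-Tp are neighbours on opposite strands, at chrM:15289-15355 and chrM:15356-15422, and carry threonine and proline. Their sequences are shown on the strand of each RNA, with the anticodon (bases 31 to 33) in capitals.
mt-Tt: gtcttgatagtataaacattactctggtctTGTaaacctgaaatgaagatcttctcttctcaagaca
mt-Tp: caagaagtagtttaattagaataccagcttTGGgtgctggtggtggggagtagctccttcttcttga
Since no base lies between them and the libraries do not mark the strand, reads of either strand could be counted on both.

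mt-Tt was at 1.66, 15.3 and 8.52 CPM in SD Mof+/+ and at 26.5, 36.3 and 84.9 CPM in SD Mof+/− (2.92 ± 0.76 SE in log2 units, adjusted p = 0.0578 in edgeR). mt-Tp was at 4.21, 0 and 0.13 CPM in Mof+/+ and at 10.2, 8.44 and 61.3 CPM in Mof+/− (log2 fold change 4.59, adjusted p = 0.0878). mt-Tl1, which carries leucine and lies between mt-Rnr2 and mt-Nd1, was at 0.77, 0.82 and 1.81 CPM in Mof+/+ and at 10.4, 11.3 and 1.64 CPM in Mof+/− (log2 fold change 3.10, adjusted p = 0.0829). All missed the threshold in this fit. After TMM scaling, mt-Rnr2, mt-Tl1, mt-Tp, mt-Tt and mt-Tw were the 5 members whose Mof+/− libraries all lay above the Mof+/+ libraries, where 17.6% of all genes did. By CPM without TMM, mt-Rnr2 and mt-Tl1 overlapped between the genotypes. mt-Tt passed with DESeq2 (adjusted p = 0.00120), without the filter on low counts (5.87e-04) and with the replicate number as a block (0.0495), and its log2 fold change was 0.33 with the correction for transcript length and −0.63 with the grouping by column headings. With 1 library left out it ran from 2.20 (without SD Mof+/− replicate 3) to 3.68 (without SD Mof+/+ replicate 2) and passed in none of these fits, nor with all 10 libraries in one fit (adjusted p = 0.193). mt-Tp passed without the filter (adjusted p = 0.00182 in edgeR). Its log2 fold change was 8.78 without SD Mof+/+ replicate 1, 3.00 without SD Mof+/− replicate 3, 2.08 with the length correction and −1.91 with the grouping by column headings. mt-Tl1 passed with DESeq2 and without SD Mof+/− replicate 3 (adjusted p = 0.0370 from edgeR), and was at 1.64 on the log2 scale with the length correction (adjusted p = 0.427) and at 2.92 with the replicate block (adjusted p = 0.216).

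Between the genotypes on HFD, 0 of 22 members were called, as was 0% of the 14120 genes tested, and 2 members (mt-Te and mt-Tq, named after their values were seen) had an unadjusted p under 0.05, both higher (3.34% of all genes). DESeq2 called 1 member (mt-Te, and 1.48% of all genes). Higher values in Mof+/− were found for 12 of the 13 mRNAs. The median log2 fold change was 2.52, against −0.24 over all genes, and rested on 1 library. mt-Nd5 was at 3685 and 2188 CPM in HFD Mof+/+ and at 12117.5 and 627 CPM in HFD Mof+/−. mt-Co1 was at 15091 and 9877 CPM in HFD Mof+/+ and at 77087 and 5287 CPM in HFD Mof+/−. In both genes, replicate 1 lay above and replicate 2 below the Mof+/+ libraries. After TMM scaling, 7 members did not overlap and were higher in Mof+/− (14.9% of all genes), among them mt-Rnr1, mt-Co2, mt-Nd3 and mt-Tw. By CPM, mt-Co2 overlapped, at 24.0 and 39.8 CPM in Mof+/+ and 359 and 36.9 CPM in Mof+/−.

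Without HFD Mof+/− replicate 1, the library with 79894 CPM of muscle markers, edgeR called 6 of 22 members, 1 higher and 5 lower, and 27.2% of all genes, and the median over the mRNAs was −1.04. The 5 lower ones were mt-Nd5 (log2 fold change −2.06, adjusted p = 7.56e-04), mt-Atp6 (−2.12), mt-Co3 (−1.96), mt-Co1 (−1.07) and mt-Nd2 (−1.04). Without replicate 2 it called 19 members, all higher, and 47.9% of all genes, with a median over the mRNAs of 3.38. The direction of the HFD comparison was thus set by the library kept, and the lone library was assumed to vary like the Mof+/+ ones.

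In Mof+/+, mitochondrial mRNA values were lower on HFD. All 13 mRNAs were lower on HFD, with a median log2 fold change of −0.80 against −0.04 for all genes, and after TMM scaling both HFD libraries lay below all SD libraries in 11 of them (23.5% of all genes did so). On the same scale mt-Tl1 was the only member with no overlap in the other direction (25.7% of all genes), while its CPM overlapped, at 0.77, 0.82 and 1.81 on SD and 6.65 and 1.62 on HFD. edgeR called 1 of 20 members, mt-Nd5, which fell (9.75% of the 14939 genes were called, and 3.73% as lower). At an unadjusted p under 0.05 there were 8 members, all lower and all mRNAs (13.8% of all genes). mt-Nd5 was at 9819, 6830.3 and 7093 CPM on SD and at 3685 and 2188 CPM on HFD (−1.31 ± 0.31 SE in log2 units, adjusted p = 0.0436 in edgeR). mt-Co1 was at 35414, 23818 and 30223 CPM on SD and at 15091 and 9877 CPM on HFD (log2 fold change −1.13, standard error 0.29, adjusted p = 0.0520). Both separated the diets fully.

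mt-Cytb followed with 17096, 12559 and 14192 CPM on SD and 8513 and 6894 CPM on HFD (log2 fold change −0.80, adjusted p = 0.0757 from edgeR). mt-Nd1 was at 10996, 7409 and 7409 CPM on SD and at 5057 and 4237 CPM on HFD (log2 fold change −0.76, adjusted p = 0.109). mt-Nd4 was at 6893, 4989 and 6700.4 CPM on SD and at 3982 and 3651 CPM on HFD, and mt-Nd2 at 5467, 5009 and 5545 CPM on SD and at 4488 and 2968 CPM on HFD. These 4 mRNAs did not overlap between the diets, but none passed the adjusted threshold. Of the mRNAs inside the nuclear copy, mt-Co3 was at 31.9, 23.3 and 30.1 CPM on SD and at 11.5 and 12.2 CPM on HFD (log2 fold change −1.13, adjusted p = 0.0503). The rRNAs overlapped between the diets, with log2 fold changes of −0.02 for mt-Rnr2 (standard error 0.26) and −0.23 for mt-Rnr1 (standard error 0.26). All macrophage markers together were at 954 to 1701 CPM on SD and at 4407 and 5780.0 CPM on HFD in these libraries. Endothelial markers were at 736 to 1738 CPM on SD and at 363 and 284 CPM on HFD, and glia and myelin markers at 83.8 to 995 and at 54.4 and 57.3 CPM. Adipocyte markers summed to 15949 to 20649 CPM on SD and to 25715 and 22776 CPM on HFD. Of these, Lep, Fabp4 and Cidec were higher on HFD, Plin1 and Lipe lower, and Adipoq overlapped. The part of these shifts in the mitochondrial values was not tested.

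The call of mt-Nd5 was narrow. It was lost when SD Mof+/+ replicate 1 or 2 or either HFD Mof+/+ library was left out (adjusted p from 0.0702 to 0.396), kept without SD Mof+/+ replicate 3, and lost with all 10 libraries in one fit (0.667). DESeq2 called 8 members (20% of all genes) and the length correction 7 in edgeR (7.24% of all genes), all lower.

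Nuclear genes for the same complexes had a different pattern. On SD, all 75 tested nuclear subunits of complexes I, III, IV and V had higher values in Mof+/− (median log2 fold change 1.29), and 31 rose past the adjusted threshold in edgeR (5.24% of all genes were called). With the grouping by column headings the median was −0.22 and 0 were called. They were 15 of 36 in complex I, 4 of 9 in complex III, 7 of 14 in complex IV and 5 of 16 in complex V. Examples were Ndufs6 of complex I (log2 fold change 1.93, adjusted p = 0.0454 in edgeR), Uqcr11 of complex III (163 ± 25.6 CPM in Mof+/+ and 593 ± 316 CPM in Mof+/− after TMM scaling, mean ± SD, n = 3 each) and Cox7c of complex IV (113 ± 10.7 and 454 ± 244 CPM). The mitochondrial mRNAs of the same complexes had a median of 0.22 and no call. In complex II, which has no mitochondrially coded subunit, Sdhb and Sdhd rose, with log2 fold changes of 1.18 and 0.96. Of 77 mitochondrial ribosomal protein genes, 21 rose (median 0.96).

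That count depended on single libraries, as did the share of all genes called. It was 0 without SD Mof+/+ replicate 1, 2 or 3 and without SD Mof+/− replicate 2, where 0.13%, 0.239%, 0.512% and 0.115% of all genes were called. Without SD Mof+/− replicates 1 and 3 it was 43 and 34, beside 6.89% and 4.51% of all genes. The medians in these fits were 0.94 to 1.51. It was 58 with DESeq2 (15.9% of all genes), 17 with the replicate block (3.09%) and 15 with all 10 libraries in one fit (1.22%). With the correction for transcript length it was 3, with a median of 0.52 (2.75% of all genes). The ribosomal count was likewise 0 without any of those 4 libraries and 5 with the length correction. Endothelial markers summed to 736 to 1738 CPM in SD Mof+/+ and 142 to 181 CPM in SD Mof+/−. Mesothelial markers summed to 22.5 to 59.1 and 151 to 319 CPM, and glia and myelin markers to 83.8 to 995 and 35.5 to 53.9 CPM. Lymphocyte markers overlapped, with 332 CPM in SD Mof+/+ replicate 3 and 5.20 to 15.8 CPM in the other SD libraries. Adipocyte markers summed to 15949 to 20649 and 29559 to 48550 CPM, with Fabp4 the largest part. Fabp4, Adipoq and Cidec separated these groups, while Plin1, Lep and Lipe overlapped. The part of these shifts in the values of the nuclear subunits was not tested.

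Of the nuclear genes that serve mitochondrial DNA and its RNA, 1 passed the test on SD. Of 17 genes for its transcription and replication, 11 were higher and 6 lower on SD in Mof+/−, none passed, and the median was 0.30. Polg, the DNA polymerase of mitochondria, had a log2 fold change of −0.49 (adjusted p = 0.257 from edgeR) and Ssbp1, its single-strand binding protein, one of 1.03 (adjusted p = 0.148). Of 23 genes for RNA processing and stability 1 passed (4.35%, against 5.24% of all genes), Slirp, a partner of Lrpprc that binds mitochondrial mRNAs, with a log2 fold change of 1.68 (adjusted p = 0.0356). Of 6 regulators of mitochondrial biogenesis none passed, 5 were lower and 1 higher. Ppargc1a, a coactivator that drives mitochondrial biogenesis, was at 8.51 ± 2.26 CPM in Mof+/+ and 1.56 ± 1.49 CPM in Mof+/− after TMM scaling (SD, n = 3 each, adjusted p = 0.215 in edgeR), without overlap. It was named after its values were seen.

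In Mof+/+ the medians of the mitochondrial and nuclear subunits had opposite signs between the diets. Of the 76 nuclear subunits of complexes I, III, IV and V, 61 were higher on HFD, 14 of them past the adjusted threshold (9.75% of all genes were called), with a median log2 fold change of 0.48, while all 13 mitochondrial mRNAs were lower. Ndufs6 was at 57.4 ± 14.6 CPM on SD (SD, n = 3) and 126 ± 16.5 CPM on HFD (SD, n = 2) after TMM scaling, and Atpif1, the inhibitor of ATP synthase, rose by 1.92 on the log2 scale (adjusted p = 0.00707 from edgeR). Of complex II, Sdha fell by 0.88 on the log2 scale. Slirp rose by 1.26 on the log2 scale. Of 77 mitochondrial ribosomal protein genes 16 rose. That count was 0 without SD Mof+/+ replicate 1 (1.63% of all genes called), 8 without replicate 2 (5.87%), 1 and 0 without HFD Mof+/+ replicates 1 and 2 (1.49% and 0.384%), and 0 with all 10 libraries in one fit (0.893%). With the length correction the nuclear median was 0.03, with 3 genes higher and 1 lower, and the mitochondrial median was −1.31. With the grouping by column headings the nuclear median was −0.47 and the mitochondrial median −0.89, with no call in either. The nuclear count was 3 with the replicate block and 1 with all 10 libraries in one fit. Leaving out 1 library gave 0 to 13 nuclear calls beside 0.384% to 14.9% of all genes, with 1 without SD Mof+/+ replicate 1, 4 without replicate 2, 1 without HFD Mof+/+ replicate 1 and 0 without HFD Mof+/+ replicate 2.

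**Figure D5:**
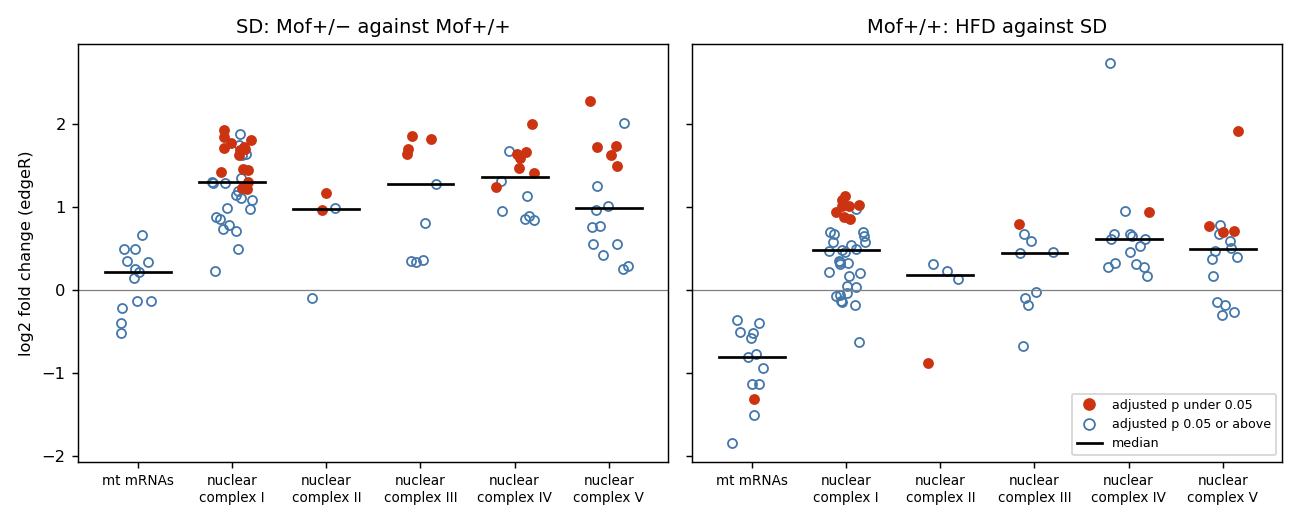
Log2 fold changes from edgeR for the 13 mitochondrial mRNAs and for the nuclear subunits of each complex, with filled points for an adjusted p under 0.05 and bars for medians. On SD (left) the nuclear subunits have medians of 0.98 to 1.37 and the mitochondrial mRNAs one of 0.22, and between the diets in Mof+/+ (right) the mitochondrial mRNAs all lie below 0.

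On HFD, 74 of 76 nuclear subunits had higher values in Mof+/− (median log2 fold change 1.27), and 0 were called (0% of all genes). At an unadjusted p under 0.05 there were 54, all higher (3.34% of all genes), and DESeq2 called 4 (1.48% of all genes). Without HFD Mof+/− replicate 1, when 5 mitochondrial mRNAs were called lower, 60 of these nuclear genes were called higher and 1 lower, with a median of 1.19, where 27.2% of all genes were called. Without replicate 2, 56 were called higher and 1 lower (median 1.27), where 47.9% of all genes were called. The nuclear median was thus nearly the same with either library, while that of the mitochondrial mRNAs was −1.04 or 3.38. In both libraries the summed muscle markers (79894 and 1931 CPM) and summed brown adipocyte markers (1137 and 348 CPM) lay above all others. The part of these in the nuclear values was not tested. The comparison of the genotypes on HFD shares its Mof+/+ libraries with that of the diets.

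Between the diets in Mof+/−, 0 of 23 members were called (0% of 13610 genes), and 2 had an unadjusted p under 0.05. These were mt-Rnr1 and mt-Rnr2, both higher on HFD (3.09% of all genes were higher at that p). DESeq2 also called 0 members (2.95% of all genes). The mRNAs had a median log2 fold change of 1.58, which was −1.84 without HFD Mof+/− replicate 1 and 2.49 without replicate 2, when 10 of 24 members were called higher and 13.8% of all genes were called. In this comparison the SD libraries hold Xist and the HFD libraries do not, so diet, age and sex cannot be told apart. After TMM scaling, 1 member did not overlap and was higher on HFD (mt-Ti, 9.62% of all genes) and 2 were lower (mt-Tp and mt-Nd4l, 19.7% of all genes). The test of the difference itself, the interaction of genotype and diet over all 10 libraries, had 3 members at an unadjusted p under 0.05. These were mt-Rnr1, mt-Rnr2 and mt-Nd1, all with a positive interaction (3.98% of all genes were positive at that p). The interaction test called 0 of 24 members (0.0881% of 15897 genes) in edgeR and 0 with DESeq2. Without HFD Mof+/− replicate 2 it called 12 of 24 members and 17.7% of all genes, and without replicate 1 it called 0 members and 0.256% of all genes.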

How the data were processed

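RNA of 10 WAT libraries (TruSeq RNA v2, paired reads) was mapped to GRCm38 with STAR and counted per gene with featureCounts (Subread 1.5.0-p1) by the authors, who deposited raw counts without normalization. The annotation release and the treatment of reads with several matches are not given in the sources used here. Gene symbols, positions and transcript sequences were taken from GENCODE M21, and copies of mitochondrial genes were searched for in its transcripts with blastn 2.17.0 (at least 95% identity over 100 bases).

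Libraries were grouped by their sample labels. CPM used the total of counts on genes, 1044355 to 17171947 per library, which sets the counting precision. Groups were compared in pairs with edgeR 4.0.16 (quasi-likelihood test, TMM, filterByExpr, Benjamini-Hochberg over all genes tested, threshold 0.05), fitted to the libraries compared, and standard errors were taken as the fold change over the root of the F statistic. The interaction was fitted to all 10. Ratios of counts were compared by exact permutation within diets. The procedure was tested on simulated counts. Alternatives were DESeq2 1.42.0, its size factors, TMM and totals without the members, no filter, a lowess correction for transcript length, a replicate block, all 10 libraries in one fit, each library left out, and the grouping by column headings. R 4.3.3, Python 3.11.15, pandas 2.3.3 and matplotlib 3.10.9 were used.

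The members and gene lists were chosen with earlier results of these data known. Values were named for Kat8, the mRNAs, the rRNAs, the 5 tRNA genes of highest mean CPM, and in each nuclear list up to 4 called genes of largest change or, where none passed, the 2 of highest mean CPM, of which examples are given. The labels call the libraries biological replicates, and p-values measure the spread between them.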

Additional observations from a re-analysis of the deposited data

Results flagged for a closer look

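The ratio of mt-Cytb to mt-Nd1 separated the genotypes in opposite directions on the 2 diets. In SD Mof+/− it was 2.77 to 2.90, above the 1.55 to 1.92 of SD Mof+/+, a ratio of group means of 1.64. On HFD it was 1.33 and 1.49 in Mof+/−, below the 1.63 and 1.68 of Mof+/+. The difference between the diets was not tested. The log2 differences were 0.72 on SD and −0.23 on HFD. Of the 4 ratios, the CPM of the 13 mRNAs and 2 rRNAs and the share of all members, compared between genotypes and between diets, this was the only value with such a reversal, and the genotype groups of SD also differ in sex.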

How the results depend on the processing

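The number of members called depended on the settings. On SD, between the genotypes, it was 2 with DESeq2 (15.9% of all genes), 2 without the filter (8.35%) and 1 with the replicate block (3.09%). With 1 library left out it was 0 to 1 there (0.115% to 6.89% of all genes). On HFD it was 1 with DESeq2 (1.48%), 1 with the length correction (0.689%), 1 with the replicate block (1.42%) and 0 to 19 with 1 library left out. Between the diets in Mof+/+ it was 8 with DESeq2 (20%), 2 with its size factors (9.77%) and 7 with the length correction (7.24%). In the same comparison it was 0 with all 10 libraries in one fit (0.893%) and 0 with the grouping by column headings (0%). With 1 SD library left out it was 0 to 1 (1.63% to 14.9%). Between the diets in Mof+/− it was 4 without the filter (2.1%) and 0 to 10 with 1 library left out, and for the interaction 3 (1.62%) and 0 to 12. The cause was not tested. Without HFD Mof+/− replicate 1 or 2, the HFD genotype log2 fold changes ran from −1.04 to 3.38 for mt-Nd2, from −1.07 to 3.02 for mt-Co1, from −2.12 to 3.66 for mt-Atp6, from −1.96 to 3.75 for mt-Co3 and from −2.06 to 2.44 for mt-Nd5.

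With the grouping by column headings, the log2 difference between the genotypes was 0.37 for mt-Rnr2 to mt-Nd1 and 0.29 for mt-Co1 to mt-Nd1, and the latter ran from −0.40 to 0.10 with 1 library left out (0.10 without SD Mof+/− replicate 3). The log2 ratio of the mitochondrial share with that grouping was 0.41 between the genotypes on SD (−0.43 by the labels), −0.60 for the diet in Mof+/+ (−1.02) and −0.0756 for the diet in Mof+/− (0.35). With 1 library left out, this log2 ratio ran from −0.72 to −0.00915 between the genotypes on SD (the latter without SD Mof+/− replicate 3), from −1.03 to 2.88 between the genotypes on HFD, from −1.23 to −0.80 for the diet in Mof+/+ and from −1.61 to 2.30 for the diet in Mof+/−. In the latter it was −1.61 without HFD Mof+/− replicate 1 and 2.30 without replicate 2. Of 1493 values for single members under the alternatives, 1295 kept their direction and side of the threshold, 71 passed it in addition, 6 no longer passed, 5 changed sign with a call and 116 changed sign without one. Same-numbered libraries did not deviate together (correlations of 0.01 for each of the 3 pairs on SD and 0.03 on HFD), so the replicate numbers were not taken as pairs, and the counts with the replicate block are those above. Depth limits the tRNA genes and the mRNAs mt-Atp8 and mt-Nd4l, which had libraries at 0, and 3 counts were 2.87 CPM in HFD Mof+/− replicate 1.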
